A study of Mus musculus with 4 samples.

Results

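The genes described here encode the MHC class I molecules and the machinery that loads them with peptide. They were followed across 4 pools of spleen RNA from mouse pups whose dams had been given carbon black nanoparticles (CB-NP), ultrafine particles of nearly pure carbon, or water. The members are H2-T23, H2-T24, H2-T22, H2-M3, H2-K1, H2-D1, B2m, Tap1, Tap2 and Tapbp, and they were found on the array by matching the RefSeq accession of each probe to its gene symbol. Of these 10 genes, 9 had a probe, out of 20284 genes matched on the whole array, and H2-T22 had none. The members were selected on the measured differences between the CB-NP and control pools of these same arrays, so every value below is a description and none was tested.

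All pups were ICR mice, an outbred stock, and were 5 days old. The male CB-NP and female CB-NP pools came from pups whose dams had received 95 microg/kg CB-NP into the nose on each of 2 occasions, gestational days 5 and 9. The male control and female control pools came from pups of dams treated on the same days with distilled water, 1 mL/kg. RNA from the spleens of a group was combined before labelling, the number of animals in a pool is not given in the sources used here, and each pool was read on 1 array. There is therefore no replicate spread for any group, and array position, litter and animal cannot be told apart from group.

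MHC class I molecules sit on the surface of nearly all nucleated cells and show fragments of the cell's own proteins to CD8 T cells and natural killer cells. Each is a heavy chain paired with the light chain beta-2-microglobulin. Peptides cut by the proteasome are pumped into the endoplasmic reticulum by the TAP transporter and handed to the heavy chain by tapasin. Mice have classical heavy chains, which are highly polymorphic, and a larger set of non-classical ones with narrower tasks. Interferons are known to raise the transcription of most of these genes.

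Promoter sequences were available from RefSeq (build GRCm38.p6, 250 bases before to 50 after the annotated start, read on the gene's strand) for 8 of the 10 members, and not for H2-T24 and Tap2. The 4 printed here are those of a non-classical gene that was higher in both CB-NP pools (H2-T23), of both classical genes and of the light chain. Capitals mark the spacing typical of an interferon response element, GAAANNGAA or GAANNGAAA on either strand, so that its reverse complement appears in capitals where the motif lies on the other strand. The windows are chr17:36032652-36032951 (minus strand) for H2-T23, chr17:35262844-35263143 (plus strand) for H2-D1, chr17:34000298-34000597 (minus strand) for H2-K1 and chr2:122147437-122147736 (plus strand) for B2m.
H2-T23: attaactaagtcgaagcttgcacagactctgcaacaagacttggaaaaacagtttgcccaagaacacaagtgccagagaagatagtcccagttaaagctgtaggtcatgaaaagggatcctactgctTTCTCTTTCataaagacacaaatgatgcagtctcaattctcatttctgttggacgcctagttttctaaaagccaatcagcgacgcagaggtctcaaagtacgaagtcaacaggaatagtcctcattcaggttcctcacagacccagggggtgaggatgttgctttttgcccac
H2-D1: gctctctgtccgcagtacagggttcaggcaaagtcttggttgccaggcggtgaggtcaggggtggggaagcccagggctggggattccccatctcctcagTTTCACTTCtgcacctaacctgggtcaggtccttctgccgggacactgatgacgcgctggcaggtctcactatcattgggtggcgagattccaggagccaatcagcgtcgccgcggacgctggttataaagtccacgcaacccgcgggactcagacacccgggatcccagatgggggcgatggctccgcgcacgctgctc
H2-K1: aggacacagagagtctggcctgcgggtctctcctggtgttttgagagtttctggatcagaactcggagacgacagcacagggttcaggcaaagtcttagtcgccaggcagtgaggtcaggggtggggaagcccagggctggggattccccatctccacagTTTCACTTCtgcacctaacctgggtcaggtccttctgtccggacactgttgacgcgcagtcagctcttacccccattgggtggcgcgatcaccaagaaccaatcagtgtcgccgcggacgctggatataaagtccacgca
B2m: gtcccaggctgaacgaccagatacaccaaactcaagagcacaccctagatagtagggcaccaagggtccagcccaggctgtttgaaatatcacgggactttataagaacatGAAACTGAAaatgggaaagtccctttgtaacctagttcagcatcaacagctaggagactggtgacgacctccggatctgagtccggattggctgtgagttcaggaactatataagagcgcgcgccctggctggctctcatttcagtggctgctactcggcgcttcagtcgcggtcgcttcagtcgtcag

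Either spacing was present in the windows of 6 of the 8 members, namely H2-T23, H2-T22, H2-M3, H2-K1, H2-D1 and B2m, and in 14.8% of all 32851 promoter windows. The first capital lies at -123 from the start in H2-T23, -150 in H2-D1, -90 in H2-K1 and -139 in B2m. In H2-K1 and H2-D1 the capitals read the same letters and follow a few bases after GGGATTCCC, the letters of the class I enhancer that NF-kappaB is known to bind. Those 9 letters were found in these 2 members and in 0.353% of all windows. CCAAT was found in 8 of the 8 members and in 37.4% of all windows, and TGACG, the core of a cyclic AMP response element, in 6 of the 8 and in 20.8%. TTCNNNGAA, the spacing of a STAT site, was found in H2-M3 alone among the members and in 8.3% of all windows, and GGGANTTCC in none of the members and in 1.68%. Both strands were searched, and the interferon spacings can overlap each other. The search covers these windows only. The members holding the interferon spacing include H2-T23, at least 2-fold higher in the male CB-NP pool, and B2m, whose differences lay within the scanner error.

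The levels below are signals divided by the 75th percentile of the signals on the same array, so that 1 stands for that percentile. They are comparable between pools for a given probe and not between probes. Log2 differences are CB-NP minus control within a sex unless another pair is named. Each carries a scanner error near 0.204, propagated from the errors deposited with both signals, and it covers neither pooling nor animals. The error of a single level was 0.144 to 0.146 for every member probe and was not reduced for the number of spots. It was wider than the SD of repeated spots of H2-K1 and Tap1, 0.06 to 0.11. A difference within the scanner error is therefore only a size under about 0.204. All 9 members were well above background on all 4 arrays, as were 13933 genes in all.

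H2-T23 encodes the heavy chain of Qa-1, a non-classical molecule that presents leader peptides of other class I chains to the CD94/NKG2A receptor of natural killer and T cells. Its level was 26.7 in the male CB-NP pool, against 12.2 in the male control, and 27.9 in the female CB-NP pool, against 19.3 in the female control. Both CB-NP pools lay above both controls and close to each other, and the male control was the lowest of the 4. The log2 difference was 1.13 in males (2.18-fold) and 0.53 in females (1.45-fold). The 2 CB-NP pools differed by 0.06 (female minus male), whereas the 2 controls differed by 0.66. The larger male difference came with a lower male control and with a like level in the CB-NP pools.

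H2-T24 encodes a non-classical heavy chain of the same T region. Its main probe read 2.03 in the male CB-NP pool, against 0.606 in the male control, and 2.0 in the female CB-NP pool, against 1.16 in the female control. As for H2-T23, the CB-NP pools were alike and the male control was lowest. The log2 difference was 1.75 in males (3.35-fold) and 0.79 in females (1.73-fold), and the controls differed by 0.93, female minus male. In males 6 of 14186 genes had a difference at least this high, H2-T24 itself included. A dimmer probe of H2-T24 gave 1.00 in the male CB-NP pool, against 0.516 in the male control, and 1.11 in the female CB-NP pool, against 0.781 in the female control. It had the same direction and smaller differences, 0.96 in males and 0.50 in females.

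H2-M3 encodes the non-classical chain that presents peptides starting with N-formylmethionine, as bacterial and mitochondrial proteins do. Its level was 0.862 in the male CB-NP pool, against 0.869 in the male control, and 0.874 in the female CB-NP pool, against 0.696 in the female control. Here 3 pools lay together and the female control was lowest. The log2 difference was -0.012 in males and 0.33 in females (1.25-fold), and the controls differed by -0.32, female minus male.

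The classical chains H2-K1 and H2-D1 present peptides to CD8 T cells and are ligands of Ly49 receptors of natural killer cells. H2-D1 read 32.6 in the male CB-NP pool, against 20.03 in the male control, and 32.2 in the female CB-NP pool, against 29.8 in the female control. The male control stood below the other 3, and those 3 lay within 1 scanner error of each other. The log2 difference was 0.70 in males (1.63-fold) and 0.11 in females, and the controls differed by 0.58. H2-K1 read 24.3 in the male CB-NP pool, against 23.8 in the male control, and 30.3 in the female CB-NP pool, against 27.3 in the female control. Its pools were ordered by sex, with log2 differences of 0.03 in males and 0.15 in females, both within the scanner error. A dimmer probe of H2-K1 gave 12.6 in the male CB-NP pool, against 9.10 in the male control, and 13.3 in the female CB-NP pool, against 11.9 in the female control. That probe had the male control lowest and a log2 difference of 0.47 in males and 0.16 in females, so the probes of H2-K1 disagreed on the male difference.

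B2m, the light chain shared by all class I molecules, read 45.9 in the male CB-NP pool, against 42.8 in the male control, and 48.7 in the female CB-NP pool, against 48.3 in the female control. The log2 differences of 0.10 in males and 0.01 in females were both within the scanner error. B2m lies on chromosome 2, whereas the other members lie on chromosome 17.

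**Figure D1:**
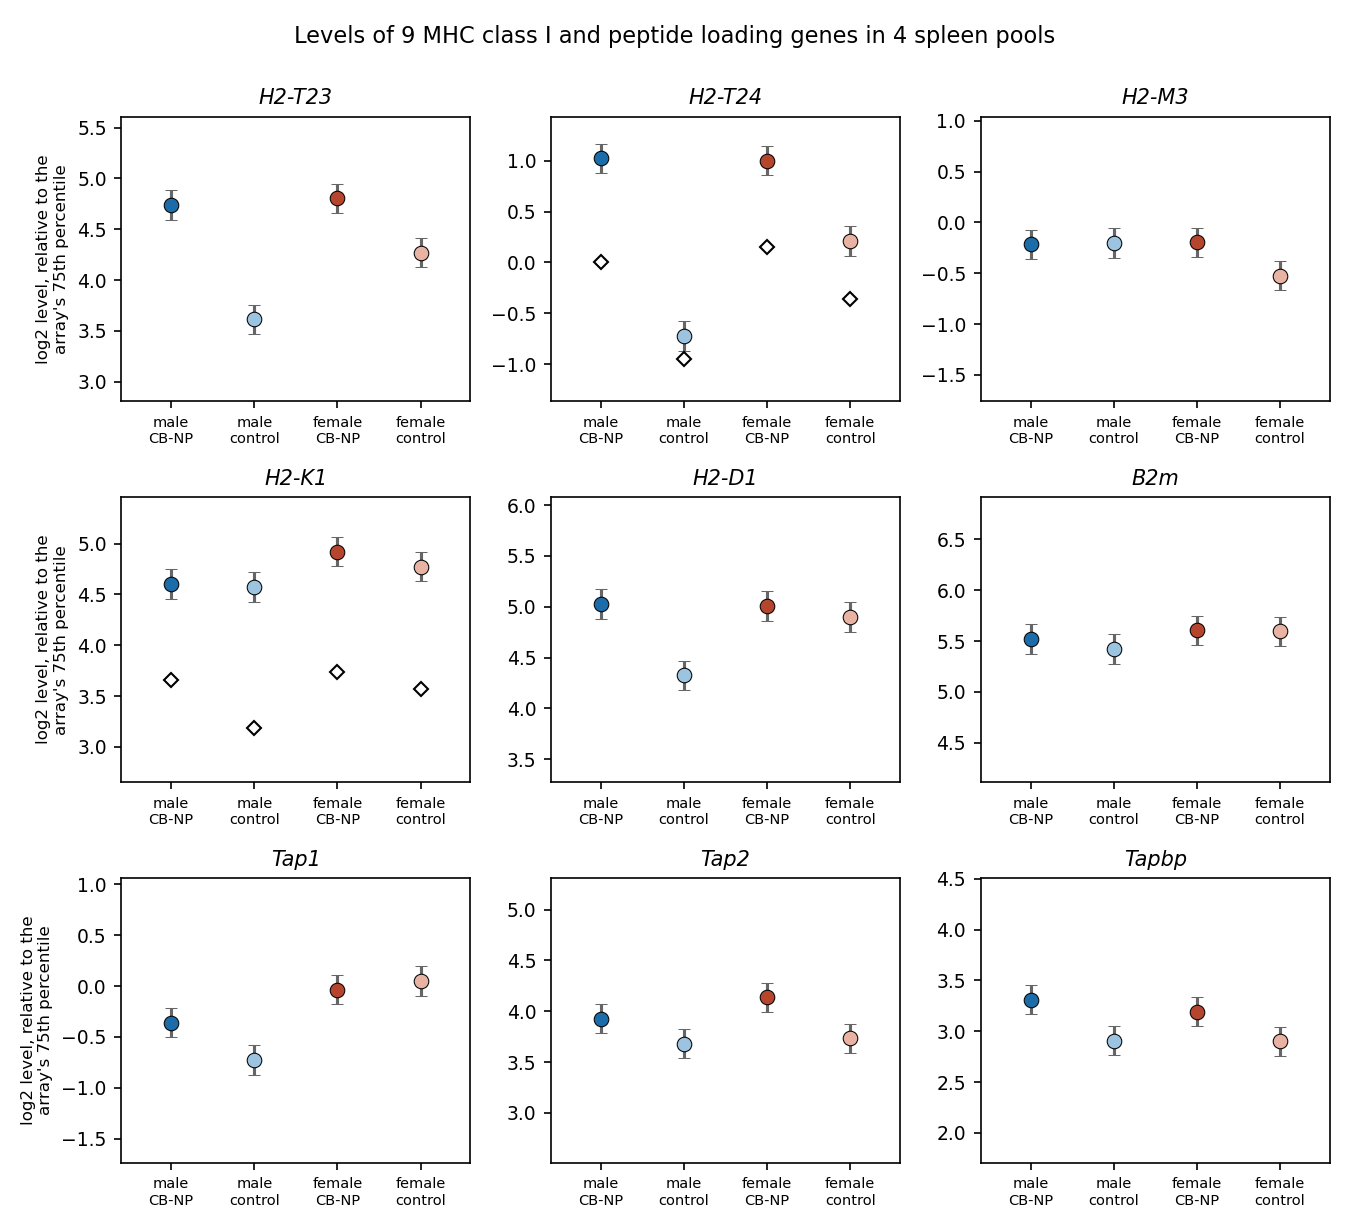
Log2 level of each of the 9 members (relative to the array's 75th percentile) in the male CB-NP, male control, female CB-NP and female control pools, 1 array each, with a panel per gene and the same span on every axis. Filled circles are the main probe with its scanner error and open diamonds the other probe of H2-T24 and H2-K1; the male control is lowest for 7 of the 9 main probes.

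Tap1 and Tap2 encode the subunits of the peptide transporter. Tap1 read 0.780 in the male CB-NP pool, against 0.604 in the male control, and 0.976 in the female CB-NP pool, against 1.04 in the female control. Both female pools lay above both male pools. The log2 difference was 0.37 in males (1.29-fold) and -0.086 in females, and the controls differed by 0.78, female minus male. Tap2 read 15.2 in the male CB-NP pool, against 12.8 in the male control, and 17.6 in the female CB-NP pool, against 13.3 in the female control. Its controls were alike and both CB-NP pools were higher, by 0.24 in males (1.18-fold) and 0.40 in females (1.32-fold). Tapbp encodes tapasin, which bridges the transporter and the heavy chain. It read 9.91 in the male CB-NP pool, against 7.49 in the male control, and 9.15 in the female CB-NP pool, against 7.47 in the female control. As for Tap2, both CB-NP pools lay above both controls, with log2 differences of 0.40 in males (1.32-fold) and 0.29 in females (1.22-fold).

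The main probes of H2-K1 and Tap1 were each printed 10 times on an array, which shows how well a level was read within 1 hybridisation. The spots of H2-K1 had an SD of 0.06 to 0.07 on the log2 scale in each pool. For Tap1, after outlier spots were left out, 9 spots in the male CB-NP pool ranged over -0.50 to -0.25 and 8 spots in the male control over -0.86 to -0.59, with no overlap. In females, 9 spots of the CB-NP pool ranged over -0.24 to 0.05 and 10 spots of the control over -0.18 to 0.23, and these overlapped. Spots share 1 RNA pool, so they measure reading error and not the spread between animals.

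**Figure D2:**
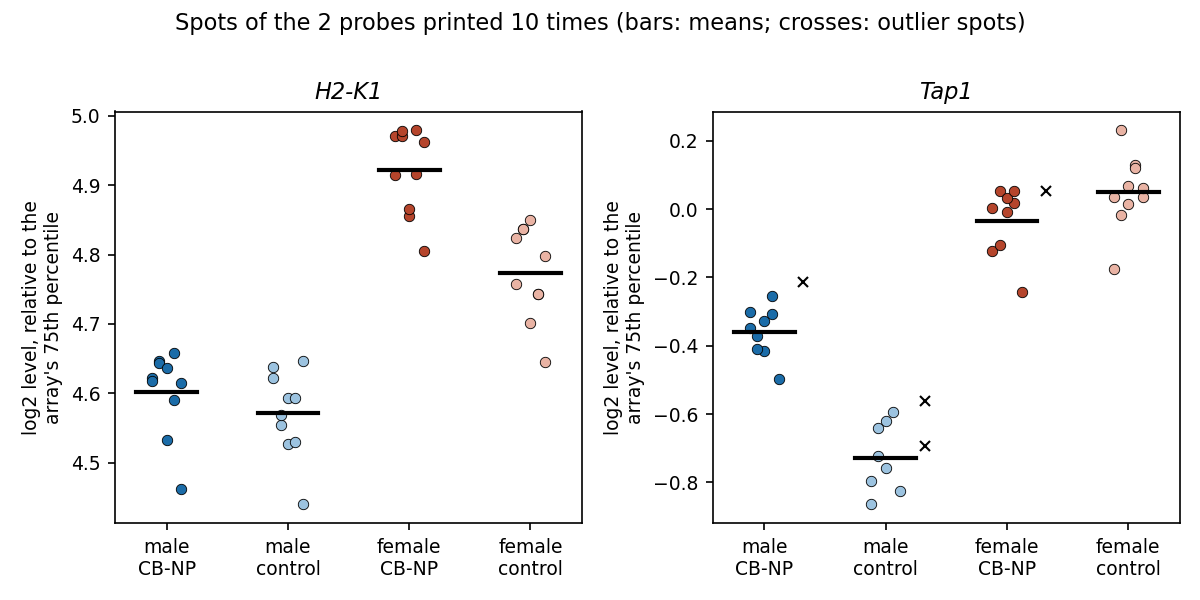
Log2 level of each spot of the main probes of H2-K1 and Tap1 (relative to the array's 75th percentile) in the male CB-NP, male control, female CB-NP and female control pools. Circles are spots, bars their means and crosses outlier spots left out; the Tap1 spots of the male CB-NP pool lie above all those used of the male control, whereas those of the 2 female pools overlap, and the 2 axes differ in span.

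Across the 9 measured members, 8 were above 0 in males, beside 45.2% of 14186 genes, and 8 in females, beside 43.3% of 14075 genes. Because the members were chosen with these differences known, no more is read from these shares. A log2 difference of at least 0.5 was found for 3 members in males, H2-T24, H2-T23 and H2-D1, beside 3.77% of all genes. In females there were 2, H2-T24 and H2-T23, beside 6.27%. At least 2-fold higher were H2-T24 and H2-T23 in males, beside 0.352% of all genes, and no member in females, beside 0.661%. No member had a log2 difference of -0.5 or below in either sex, beside 2.85% of genes in males and 3.95% in females. The median over the members was 0.37 in males and 0.29 in females, beside -0.02 and -0.04 over all genes.

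Both sexes were above 0 for 7 of the 9 members, beside 27.8% of 13933 genes measured on all 4 arrays. This count was 6 to 9 over the alternative scalings. The exceptions were H2-M3, at -0.012 in males, and Tap1, at -0.086 in females. H2-T23 and H2-T24 reached 0.5 in both sexes, beside 1.51% of genes. Both CB-NP pools lay above both controls for 5 members, H2-T23, H2-T24, H2-D1, Tap2 and Tapbp, beside 21.8% of genes. The selection of the members favours these counts too. In size, 6 of the male differences and 5 of the female differences exceeded their scanner error, and all of these were above 0. The share of all genes over their own scanner error was not counted. The smallest of those counted in males was that of Tap2 (0.24), beside 13.8% of genes at least as high. The largest not counted was that of B2m (0.10). In females the smallest counted was that of Tapbp (0.29), beside 14.8% of genes at least as high, and the largest not counted that of H2-K1 (0.15).

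**Figure D3:**
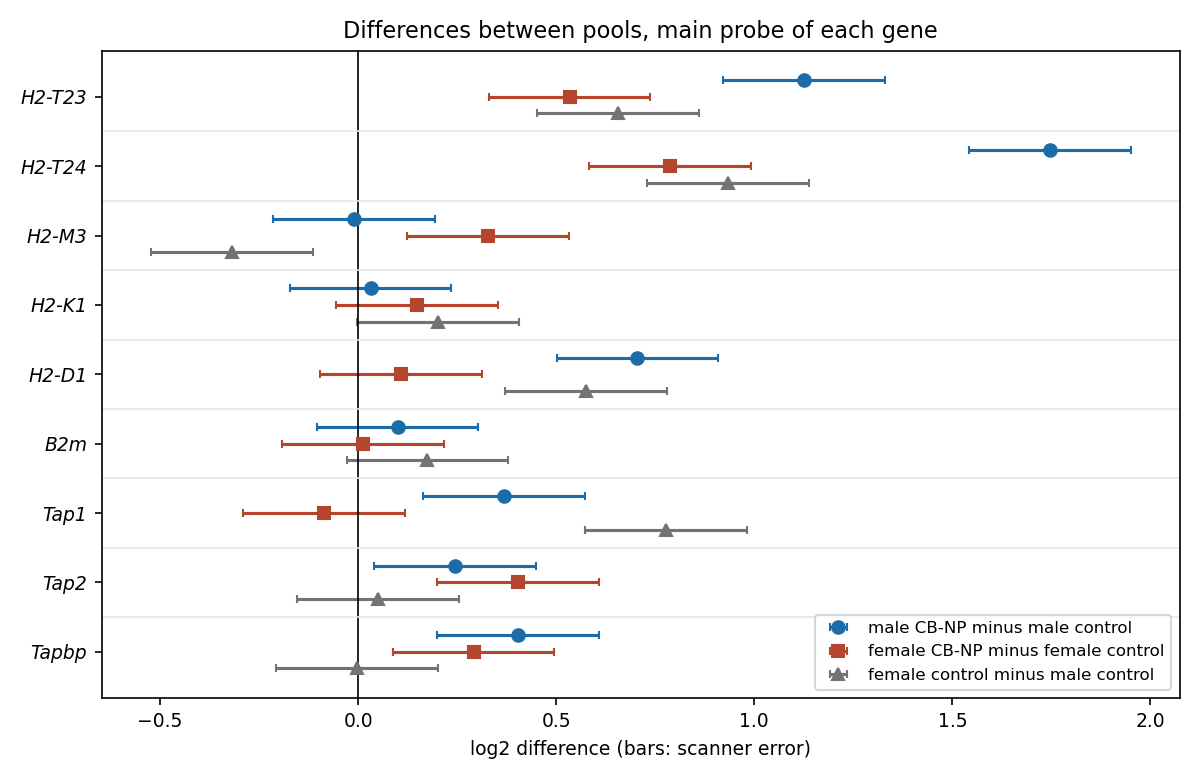
Log2 difference of the main probe of each member (horizontal axis) for male CB-NP minus male control (circles), female CB-NP minus female control (squares) and female control minus male control (triangles), with scanner error bars. H2-T24 and H2-T23 lie highest in both exposure comparisons, and for Tap1 the difference between the controls, 0.78, is larger than either exposure difference.

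The male control pool was the lowest of the 4 pools for 7 of the 9 members (6 to 8 over the alternative scalings), beside 20.9% of genes. For H2-T23, H2-T24, H2-D1 and Tap1 it lay under the next lowest pool by more than the scanner error, and for H2-K1, B2m and Tap2 by less. The share of all genes with such a gap was not counted. The female control was lowest for the other 2, H2-M3 and Tapbp, beside 24.4%. No member was lowest in a CB-NP pool, beside 20.1% of genes lowest in the male CB-NP pool and 34.7% in the female CB-NP pool. Selecting the members on the CB-NP minus control differences favours a lowest level in a control pool, so no more is read from these shares. Between the control pools, neither of which was exposed, 7 members were higher in females, beside 52.4% of 14164 genes. In this pair 4 members reached 0.5, H2-T24 (0.93), Tap1 (0.78), H2-T23 (0.66) and H2-D1 (0.58), beside 2.33% of genes, and none was at -0.5 or below, beside 3.9%. Between the CB-NP pools 6 members were higher in females, beside 43% of 14107 genes. There no member reached 0.5 in size, and all 9 differences lay between -0.12 and 0.32 (female minus male), beside 2.61% of genes at 0.5 or above and 1.91% at -0.5 or below. For H2-M3, H2-K1, B2m and Tap1 the controls differed from each other by more than the male CB-NP pool differed from the male control. The share of all genes with that order was not counted, so no more is read from it. Against the female control, a choice made after seeing the data in which sex differs too, the male CB-NP pool was higher by 0.81 for H2-T24, 0.47 for H2-T23, 0.13 for H2-D1 and 0.31 for H2-M3, and its Tap1 difference was -0.41. Then 1 member, H2-T24, reached 0.5. The comparison between the controls shares the male control array with the male exposure comparison, so the values are only set side by side.

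Other class I heavy chains and class I-like genes were 24 in number on the list, with 12 measured in males and 14 in females. Above 0 were 7 of 12 in males and 9 of 14 in females, with medians of 0.17 and 0.18. A log2 difference of at least 0.5 was found for 3 in males, H2-Q2 (0.78), H2-Q6 (0.64) and Cd1d1 (0.54), and none in females, where they were at 0.27, 0.20 and 0.21. These 3, named after their values were seen, include 2 genes of the Q region, which holds non-classical class I genes. H2-Q2 read 28.3 in the male CB-NP pool, against 16.5 in the male control, and 29.0 in the female CB-NP pool, against 24 in the female control. As with H2-D1, its neighbour on the chromosome, the male control stood below the other 3 pools. Another probe of H2-Q2 gave 0.57 and 0.09, and another probe of Cd1d1 gave 0.09 and 0.10. H2-Q4 and H2-Q7, the listed genes with the highest signal, differed by 0.04 and 0.33 in males and by 0.37 and 0.11 in females. H2-Q1, H2-M5, H2-M9 and H2-M10.1 were not well above background in any pool. Class I genes are near copies of one another and vary between mice. The sequences of the probes are not in the files used here, so which copies and alleles a probe reads was not tested.

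The T region lies toward the far end of the H2 complex from Tapbp. In the order of measured genes along chromosome 17, H2-T24 and H2-T23 are adjacent. On one side lie Gnl1 (0.29 in males and 0.22 in females) and Prr3 (0.50 and 0.66), which are not class I genes. On the other lie Gm6034 (-0.28 and -0.26), Gm11127 (1.05 and 0.52), H2-T10 (0.43 and 0.30) and Gm8909 (-0.76 and -0.62), so the neighbours did not share a direction. Between Tapbp and H2-M3, 125 other genes were measured. Of these, 60 were above 0 in males and 69 in females, with medians of -0.01 and 0.04. At 0.5 or above were 14 in males (11.2%) and 17 in females (13.6%), beside the 3.77% and 6.27% of all genes, and the MHC class II genes lie in this interval.

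**Figure D4:**
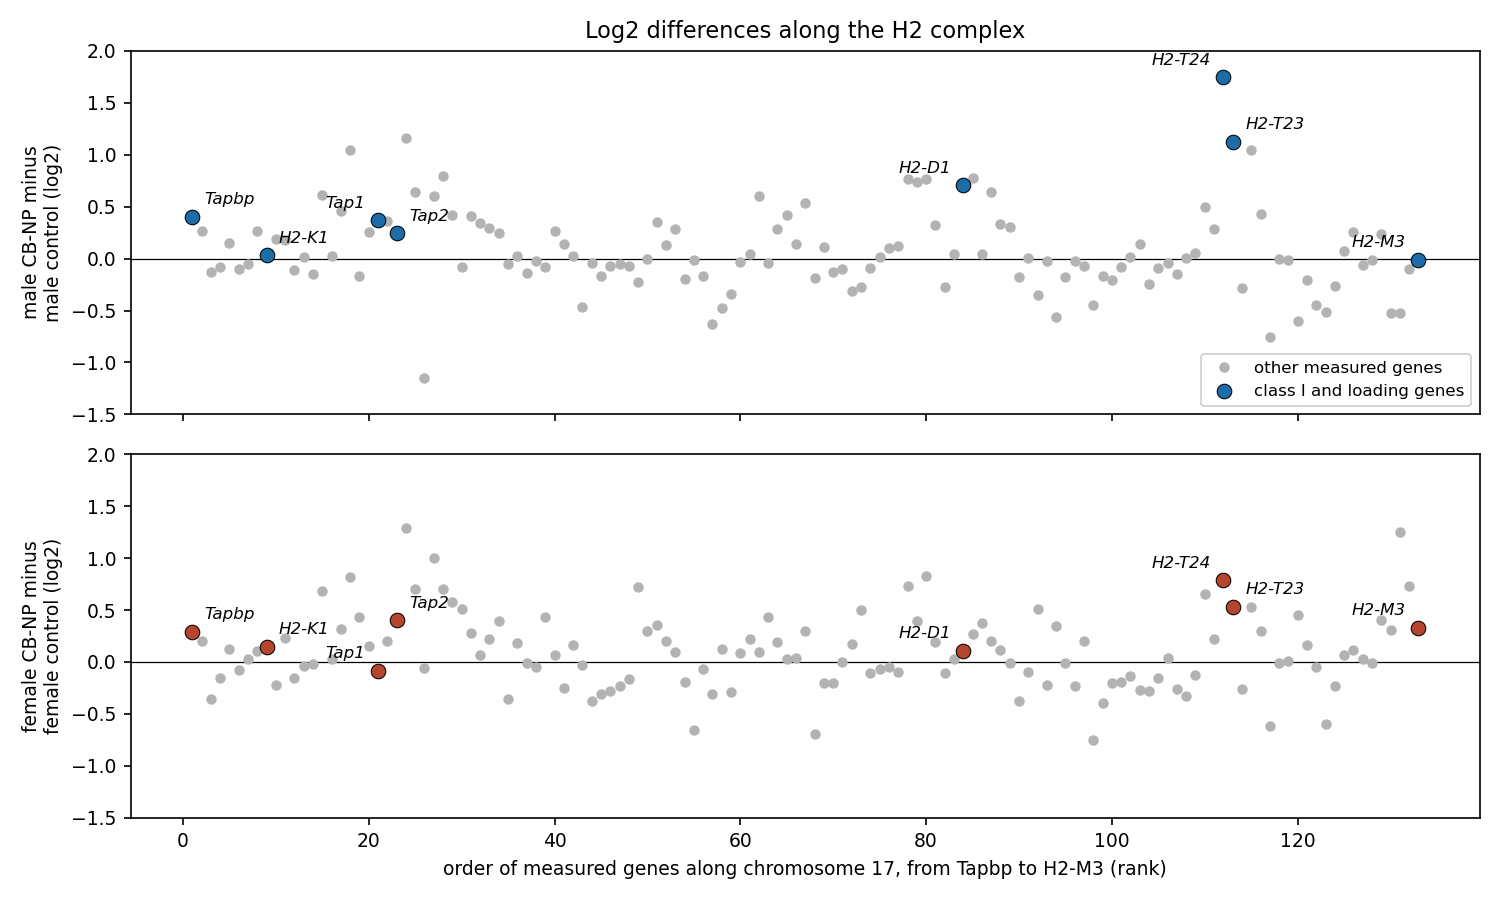
Log2 difference of every measured gene from Tapbp to H2-M3 on chromosome 17, by rank along the chromosome, for males (top) and females (bottom). Members are the large labelled points; H2-T24 and H2-T23 stand next to each other above most of the 125 other genes in both sexes, more so in males.

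Genes that regulate class I transcription were measured for 19 of the 20 listed. Above 0 were 15 in males and 10 in females, with medians of 0.18 and 0.02. Nlrc5, the transactivator that drives class I promoters, read 0.703 in the male CB-NP pool, against 0.418 in the male control, and 1.03 in the female CB-NP pool, against 0.615 in the female control. It was higher by 0.75 in males and 0.74 in females and was the only listed regulator at 0.5 or above in both, and its other probe gave 0.22 and 0.83. Irf1, which binds the interferon response element, was named after its values were seen. It read 9.41 in the male CB-NP pool, against 5.55 in the male control, and 10.7 in the female CB-NP pool, against 8.01 in the female control, with differences of 0.76 and 0.42. For both regulators the male control was the lowest pool, and the controls differed by 0.56 for Nlrc5 and 0.53 for Irf1, female minus male.

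The list of interferon genes and their receptors also holds Il12rb1, Jak1, Jak2, Tyk2 and Socs1. It had medians of 0.13 in males and 0.03 in females, with 8 and 6 of 10 measured above 0 and none at 0.5 or above. Jak1 and Ifngr1, with the highest signal of that list, were at 0.11 each in males and at -0.03 and 0.02 in females. Ifng, named after its values were seen, was at 0.42 in males and -0.25 in females, and Ifnb1 was not well above background in any pool. Among interferon-stimulated genes, 10 of 18 were above 0 in males and 17 of 19 in females, with medians of 0.11 and 0.45. Gbp3, a guanylate-binding GTPase, was at 0.57 and 0.59, and the chemokine Cxcl10 at 0.51 and 0.56. The antiviral sensor genes Oas2 and Oas3, named after their values were seen, were at -0.00 and -0.34 in males and at 0.83 and 1.33 in females. The class I members had medians of 0.37 in males and 0.29 in females. Over the alternative scalings these ranged over 0.30 to 0.43 and 0.18 to 0.39. Whether the sexes differ, and how the 2 lists are related, was not tested.

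For further steps of the peptide route the list medians lay near 0, although single genes differed by more. Of 19 other loading and endoplasmic reticulum chaperone genes, 8 were above 0 in males and 5 in females, with medians of -0.01 and -0.03. Sec61b, of the protein channel of the endoplasmic reticulum, was at -0.03 and -0.02, and the chaperone Hspa5 at 0.00 and -0.15. Thop1, a cytosolic peptidase that destroys class I peptides, was named after its values were seen and was at -0.43 and -0.60. Of 10 proteasome and activator genes, 6 were above 0 in males and 5 in females, with medians of 0.02 in both. These medians pool inducible subunits, which were above 0, with constitutive ones, which were mostly below. They also include Psme1, Psme2, Psme3 and Pomp. The inducible subunits Psmb8, Psmb9 and Psmb10 were at 0.36, 0.25 and 0.16 in males and at 0.20, 0.15 and 0.22 in females. Their constitutive counterparts Psmb5, Psmb6 and Psmb7 were at 0.03, -0.17 and -0.26 in males and at -0.27, -0.23 and -0.35 in females. Another probe of Psmb5 gave -0.20 and -0.28. All of these proteasome genes but Psmb5 and Psmb6 were named after their values were seen, and every one of the 6 subunits lay under 0.5 in size.

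Of 19 listed genes for receptors and coreceptors of class I and for some related receptors, Lilrb4a and Cd244a among them, 9 were measured. Above 0 were 3 in males and 6 in females, with medians of -0.10 and 0.25. Pirb, an inhibitory class I receptor of B cells and myeloid cells, was at 0.14 and -0.12, and Lilrb4a, an inhibitory receptor of myeloid and mast cells, at 0.17 and -0.90, with another probe at 0.04 and -1.28. Of the receptor pair for Qa-1, Klrd1 (CD94) was at -0.12 and -0.26, and Klrc1 (NKG2A) was not well above background in any pool. Cd8a was at 0.13 in males and 0.72 in females, and Cd8b1 at -0.48 and 0.81, and all 3 of Klrd1, Cd8a and Cd8b1 were named after their values were seen.

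**Figure D5:**
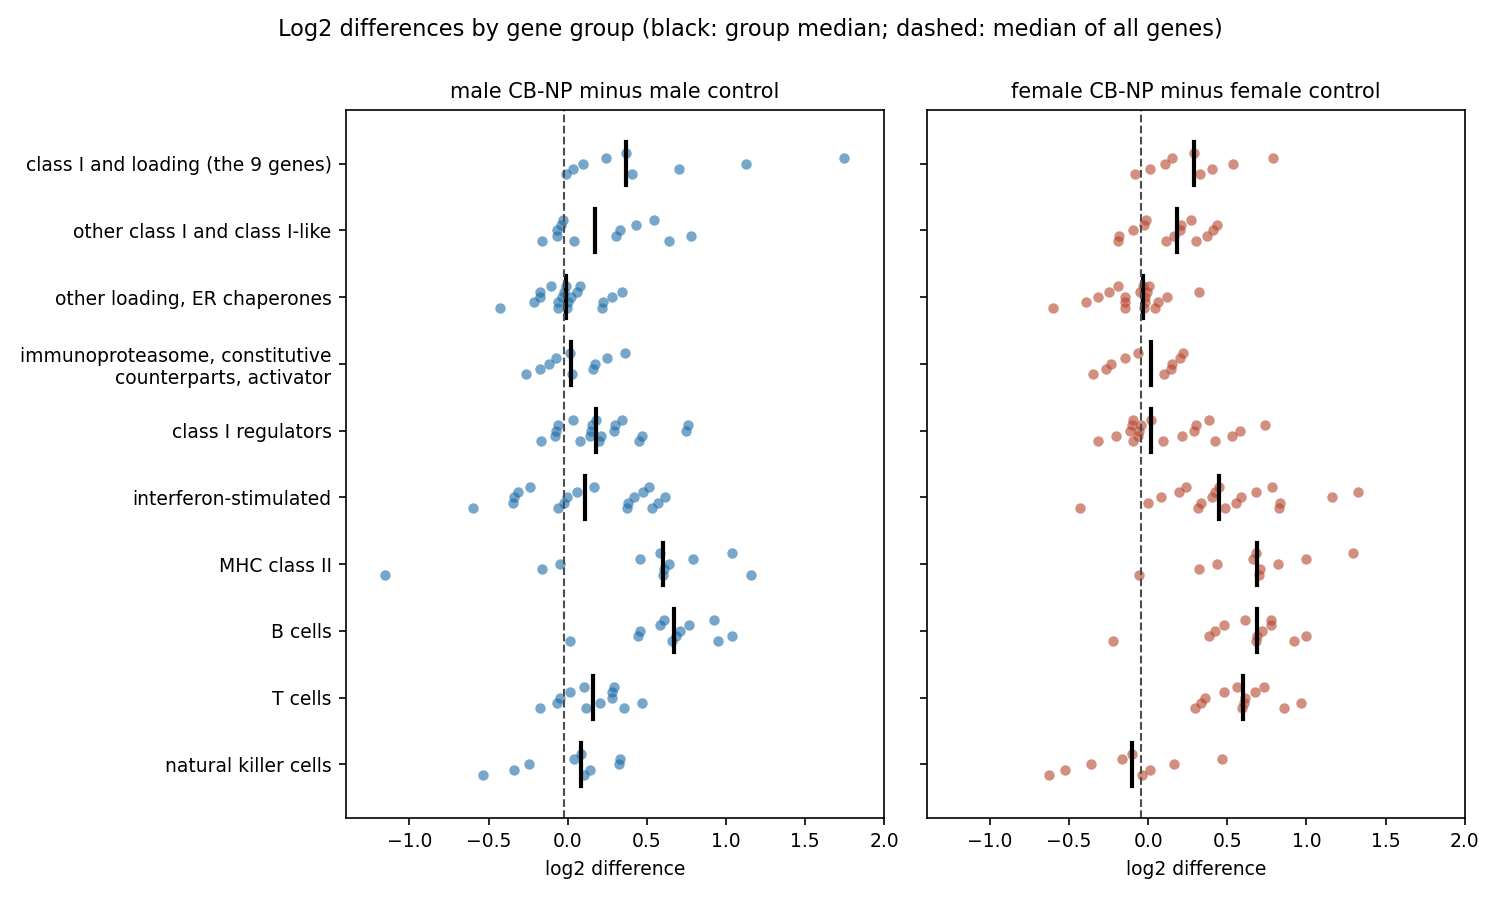
Log2 differences (horizontal axis) of the measured genes of each gene group, male CB-NP minus male control on the left and female CB-NP minus female control on the right. Points are genes, black bars group medians and the dashed line the median of all genes; the class I and loading genes have medians of 0.37 and 0.29, below the B cell and MHC class II medians of 0.67 and 0.60 in males and 0.69 and 0.69 in females.

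Markers of B cells separated the pools in both sexes. In bulk RNA, fewer cells of a type and less RNA per cell cannot be told apart. The summed level of 12 B cell genes was 105 in the male CB-NP pool, against 63.2 in the male control, and 96.8 in the female CB-NP pool, against 59.3 in the female control. All 12 were above 0 in males and 11 in females. Ms4a1 was at 0.92 and 0.61, Cd79a at 0.61 and 0.72, Cd79b at 0.71 and 0.77, Pax5 at 0.68 and 1.00 and Fcer2a at 0.95 and 0.92. Another probe of Pax5 gave 0.11 and 0.33. The controls had like B cell sums, whereas the class I members were mostly lower in the male control than in the female control. MHC class II genes, of the other antigen presentation route, summed to 175 in the male CB-NP pool, against 117 in the male control, and 167 in the female CB-NP pool, against 98.6 in the female control. Above 0 were 8 of 11 measured in males and 9 of 10 in females. H2-Ob was at 1.16 and 1.29, H2-DMb2 at 1.04 and 0.82, H2-Eb1 at 0.60 and 1.00, H2-Eb2 at 0.79 and 0.70, H2-Ab1 at 0.64 and 0.71 and H2-Oa at 0.61 and 0.68. H2-Aa, named after its values were seen, went the other way, at -1.15 and -0.06. Between the controls (female minus male), the median was -0.07 for the B cell genes, -0.14 for the class II genes and 0.20 for the 9 members. The part of B cells in the class I values was not tested.

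The 12 T cell genes summed to 34.7 in the male CB-NP pool, against 32.3 in the male control, and 43.9 in the female CB-NP pool, against 31.3 in the female control. Above 0 were 9 in males and all 12 in females, and Lck and Cd2 were at 0.02 and 0.36 in males and at 0.36 and 0.86 in females. Natural killer genes summed to 13.7 in the male CB-NP pool, against 13.1 in the male control, and 12.4 in the female CB-NP pool, against 14.9 in the female control, with Nkg7 at 0.08 and -0.04 and Gzma at 0.04 and -0.53. Macrophage genes summed to 169 in the male CB-NP pool, against 159 in the male control, and 168 in the female CB-NP pool, against 146 in the female control. Of 7 measured, 6 were above 0 in males and 4 in females, with medians of 0.14 and 0.0045, and the female gain in the sum was that of Marco, at 53.6 in the female CB-NP pool, against 30.6 in the female control. Dendritic cell genes, among which Xcr1 was not well above background in any pool, summed to 198 in the male CB-NP pool, against 194 in the male control, and 213 in the female CB-NP pool, against 186 in the female control. Nearly all of that sum was the signal of Siglech, at 195.0 in the male CB-NP pool, against 190.1 in the male control, and 209.8 in the female CB-NP pool, against 182.4 in the female control. Its log2 differences were 0.04 and 0.20, and another probe of Siglech gave -0.70 and 0.13, so the probes disagreed in males. Of 7 dendritic cell genes measured, 5 were above 0 in males and 3 in females, with medians of 0.08 and -0.13.

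Markers of other cells also separated the pools. Eosinophil genes, lower with CB-NP in 7 of 8 in males and 8 of 8 in females, summed to 11.4 in the male CB-NP pool, against 33.7 in the male control, and 19.0 in the female CB-NP pool, against 64.7 in the female control. Pancreatic acinar genes, which mark a neighbouring organ, summed to 0.928 in the male CB-NP pool, against 22.8 in the male control, and 1.09 in the female CB-NP pool, against 18.5 in the female control. Of the 15 listed, 13 were well above background in both controls. Of 7 measured in each sex, none was above 0, with medians of -3.49 in males and -3.64 in females. The defining acinar genes Cpb1 and Pnlip were not well above background in any pool. Neutrophil genes summed to 1400.5 in the male CB-NP pool, against 1336 in the male control, and 1199 in the female CB-NP pool, against 1404 in the female control. Erythroid genes summed to 2263 in the male CB-NP pool, against 2404 in the male control, and 2349 in the female CB-NP pool, against 2088 in the female control. The higher female sum was that of the globin gene Hba-a1, at 1539 in the female CB-NP pool, against 1278 in the female control. Of 8 erythroid genes, 1 was above 0 in males and 3 in females, with medians of -0.10 and -0.11. The part of any of these cell types in the class I values was not tested.

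The labels of sex held, since Xist gave a signal of 945 and 915 units in the female CB-NP and female control pools and 2.04 and 2.13 in the male CB-NP and male control pools. The Y-linked gene Ddx3y gave 2.44 and 2.51 in the same female pools and 936 and 931 in the male pools, and Eif2s3y was well above background in both male pools and in neither female pool. Of the B cell, T cell and erythroid genes with a probe, 12 of 12, 12 of 12 and 8 of 8 were well above background in all 4 pools. So were all 9 spleen stroma genes, beside 13933 of 20284 genes on the array. Blood cell genes are not particular to spleen, so these counts do not single out the spleen label. Of 59305 spots per array, 57.3% to 59.0% were well above background and none was saturated.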

How the data were processed

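Spleen RNA of 4 pools was read on 1 array each (male CB-NP, male control, female CB-NP, female control). Per the file headers, 1-colour Agilent arrays of design 028005 (build mm9) were read with Feature Extraction 10.10.1.1. Values were taken from the deposited processed signal, a linear intensity from which, per the file headers, background and spatial trend had been removed on each array, with no scaling across arrays. The deposited files also give raw intensity of the spot and its surroundings, the signal's error and other columns with flags (background, saturation, outliers). The authors' deposited value table held an intensity that differed from it by a single factor per array (3.18, 3.10, 3.49 and 2.64 in the order above, with all ratios within 1%). Its column medians were 76.1, 75.2, 79.4 and 68.9, and the aim of that scaling is not given in the sources used here.

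Log2 processed signal was centred on each array's 75th percentile over non-control spots (340, 335, 317 and 392 intensity units). Outlier spots (154, 154, 174 and 180) were left out and spots of a probe averaged. Of 55681 probes, 26762 matched 20284 genes through RefSeq accessions (table of assembly GRCm38.p6, used for names, chromosomes and gene order), and 28919 did not. The probe of highest mean signal stood for a gene. A difference was taken where the gene was well above background, on over 0.5 of its spots, on both arrays. The scanner error combines the propagated errors of both signals, averaged over the spots of a probe and not reduced for their number.

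No test was made, since the members were selected on these differences and each group had 1 array. Counts at log2 differences of 0.5 and 1 are set beside those over all genes measured. The members, the 18 other gene lists and the alternatives were chosen with earlier results of these data known. All 10 members were named. From each other list up to 6 genes at 0.5 or more in size in the same direction in both sexes were named, or else the 2 of highest signal, and others are marked as named after their values were seen. Some list genes are not reported here by name. The files give a median-pixel signal where the plan assumed a mean, and protein sequences were not used here. The counting was tested on simulated data. Software was Python 3.11.15, pandas 2.3.3, numpy 2.4.6, matplotlib 3.10.9, R 4.3.3 and limma 3.58.1. The alternatives were median centring, quantile and cyclic loess normalization, the authors' scaling, normexp background correction (offset 50) with and without quantile normalization, the mean of all probes, all spots kept, and the percentile over probes above background.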

Additional observations from a re-analysis of the deposited data

Results flagged for a closer look

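For 2 members the male and female differences ran in opposite directions, and the difference between the sexes was not tested, since each sex had 1 pool per treatment. H2-M3 was at -0.012 in males and 0.33 in females, and the male value was far inside its scanner error. With the authors' scaling the male value was 0.05, on the same side as the female one. Tap1 was at 0.37 in males and -0.086 in females, and the female value was inside its scanner error. With the authors' scaling the female value was 0.01.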

How the results depend on the processing

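Over 9 alternatives, 243 differences of members were recomputed. In 240 the value moved by less than the scanner error, and no difference larger than that error changed sign. Many of these could not move, so the count is no measure of robustness. The mean of all probes can change only H2-T24 and H2-K1, and keeping outlier spots changed only Tap1. Median centring, the authors' scaling and the percentile over probes above background shift all genes of an array alike. The 3 that moved more were H2-T24 in males, at 1.52 with normexp and 1.35 as the mean of all probes, and H2-K1 in males, at 0.25 as the mean of all probes; the cause was not tested. The count of members at 0.5 or above in males was 3 under every one of these alternatives, and it was 1 with the female control in place of the male control, an alternative added after seeing the data. In females it was 1 in place of 2 with median centring and with normexp, where H2-T23 fell under the threshold, and 3 with quantile normalization, with or without normexp. Median centring moved the median of all genes to -0.16 in females and to 0.13 between the controls, and small female differences are relative to that choice: B2m was then at -0.10 and H2-D1 at -0.00. The median over the members ranged over 0.30 to 0.43 in males and 0.18 to 0.39 in females, the members above 0 in both sexes over 6 to 9, and those lowest in the male control over 6 to 8. No paired analysis was possible because the values come from no test: pairing the pools by sex leaves 2 pairs, and the members were selected on those differences. Precision is limited by the number of arrays.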

Other observations

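Genes of the spleen's framework and of its resident phagocytes varied between probes and sexes. Madcam1, an adhesion molecule of the cells that line the marginal sinus, was at 0.52 in males and 0.98 in females, and another of its probes gave 0.43 and 0.16. The stromal list had medians of -0.07 and 0.16 with 9 genes measured. Zbtb46, a transcription factor of conventional dendritic cells, was at -0.80 and -0.51, and another of its probes gave -0.47 and -0.48. Csf1r, a growth factor receptor of macrophages, was at 0.22 and 0.08, although its other probes lay below 0 in females, and Marco, a scavenger receptor of marginal zone macrophages, at -0.03 and 0.81. Klra1, a Ly49 receptor for classical class I chains, was named after its values were seen and was at -0.10 in males and 1.36 in females, with its female control the lowest of the 4 pools. H2-Aa, the alpha chain of a class II molecule, likewise named after its values were seen, was at -1.15 and -0.06, unlike H2-Ab1, its partner chain, at 0.64 and 0.71.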
